A study of Mus musculus with 6 samples.

Results

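The genes described here are 10 that encode S100 proteins or acute-phase proteins, taken by name from the 24539 genes of a mouse adipose RNA-seq dataset: S100a8, S100a9, S100a4, S100a6, S100a10, Lcn2, Saa3, Hp, Hpx and Orm1. RNA came from epididymal white adipose tissue (eWAT), a visceral fat depot beside the epididymis, of C57BL/6 mice. The mice were 3 of genotype Jmjd8-KO and 3 wild-type (WT), each sequenced as a separate library, and both groups were kept on a high-fat diet (HFD) without other treatment. No lean mice are among the samples, the allele is given only as Jmjd8-KO, and no cell type restriction, age or length of diet is given in the sources used here. The comparison asks how the level of each gene in obese fat differed between the genotypes.

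S100 proteins are small calcium-binding proteins. S100A8 and S100A9 usually act as a heterodimer called calprotectin, stored in neutrophils and some monocytes, and outside the cell they are alarmins that signal through TLR4 and RAGE. S100A4, S100A6 and S100A10 are found in many cell types, where they bind partners such as non-muscle myosin and annexins. Acute-phase proteins are secreted during inflammation, mainly by the liver, under the cytokines IL-6 and IL-1 through STAT3, NF-kB and C/EBP factors. Fat makes some of them itself: lipocalin-2 (Lcn2), serum amyloid A3 (Saa3), haptoglobin (Hp) and orosomucoid (Orm1) are known products of adipose tissue.

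Of the 10 genes, 3 fell in Jmjd8-KO fat: S100a8, the lipocalin Lcn2 and Hpx, which encodes the haem scavenger hemopexin. None rose. S100a8 was 2.81-fold lower, Lcn2 2.22-fold lower and Hpx 5.83-fold lower. S100a4, S100a6, S100a10, Saa3, Hp and Orm1 did not pass, and S100a9 had too few reads to pass the filter. Here and throughout, passing means p adjusted over 14322 genes below 0.05 in the quasi-likelihood test of edgeR. With that rule 1.33% of all tested genes fell and 0.789% rose, against 3 and 0 of the 9 tested members. Every Jmjd8-KO value lay below every WT value for 6 of the 9, S100a10, S100a4 and Saa3 included, where 15.5% of tested genes showed that order and 14% the opposite one. The median log2 fold change was -0.73 over the 9 and -0.0056 over all tested genes.

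**Figure D1:**
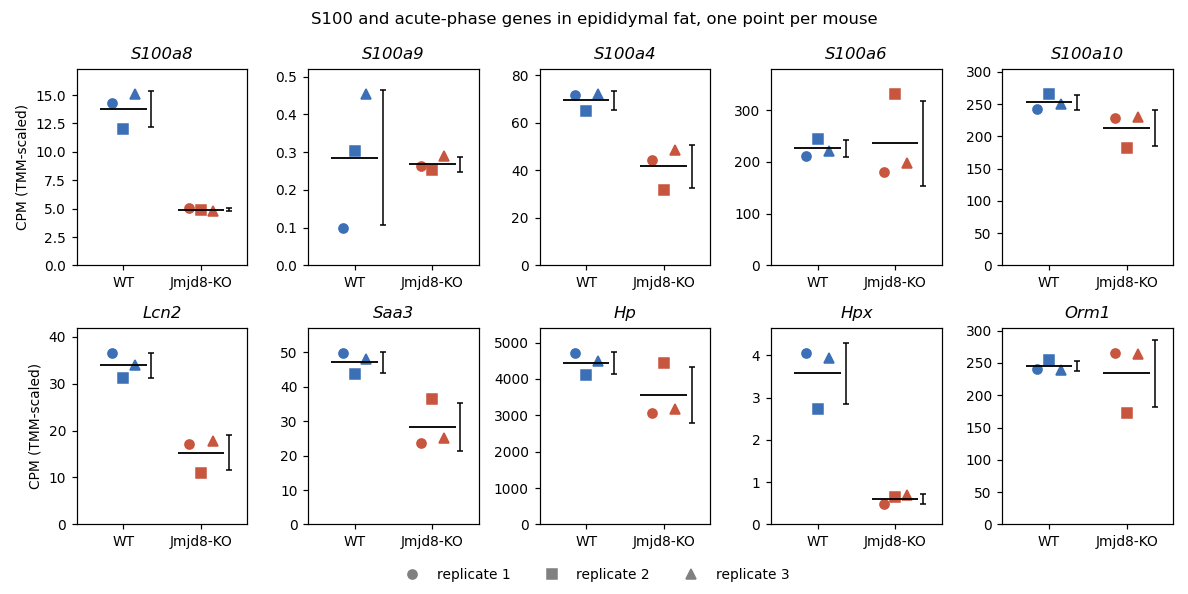
Depth-scaled counts (CPM, with TMM factors) of the 10 genes, each panel with its own linear axis from 0; a point is a mouse, its shape gives the replicate number, horizontal lines are means and bars beside them SD of 3 mice. The Jmjd8-KO points of S100a8 (4.76 to 5.06 CPM), Lcn2 and Hpx lie clear below the WT points, while those of S100a6, Hp and Orm1 mix with them.

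The target gene and the libraries were checked first. Jmjd8 counts were 748, 1147 and 728 in Jmjd8-KO replicates 1 to 3 and 2277, 2284 and 2209 in the WT mice. Scaled to library depth (CPM, with TMM factors) that is 46.5 ± 9.81 against 113.2 ± 2.34 (SD, n = 3 each). Jmjd8 transcript was thus lowered but present (log2 fold change -1.28, SE 0.144, edgeR adjusted p = 0.0193). Adipoq, the adipocyte hormone adiponectin, was at 1554 to 2561 CPM in the 6 libraries, and 8 of 12 epididymis markers were at 0 in all of them. The 1 epididymis marker that could be tested, Crisp1, fell, from 10 to 16 counts in WT to 0 in each Jmjd8-KO mouse (edgeR adjusted p = 0.0364, and 0.0921 to 0.162 without Jmjd8-KO replicate 1 or 3 or any 1 WT mouse). WT replicate 1 was high in nervous system markers, 12 of which summed to 1322 CPM against 65.9 to 93.5 CPM in the other libraries. Jmjd8-KO replicate 2 differed from its group over many genes, with a chi-square per degree of freedom of 47.0 and 43.8 against replicates 1 and 3, and 3.00 between those. Results are therefore also given without each of these libraries: without WT replicate 1, 0.104% of tested genes fell and 1 of the 9 members did (S100a8), and without Jmjd8-KO replicate 2 these were 4.82% and 6 (S100a8, S100a4, Lcn2, Saa3, Hp and Hpx).

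S100a8 and S100a9 lie next to each other on chromosome 3, facing opposite ways with 22.6 kb between them, S100a8 from 90668978 to 90670035 on the plus strand and S100a9 from 90692632 to 90695721 on the minus strand (GRCm38, GENCODE M21). The 250 bases before the RefSeq start of each gene (90669071 for S100a8 and 90695721 for S100a9) are shown because these neighbours, whose products form calprotectin, were at very different levels in this fat. Capitals mark matches to the C/EBP consensus TTNNGNAA on either strand. The windows are chr3:90668821-90669070 for S100a8 and chr3:90695722-90695971 for S100a9, from RefSeq on GRCm38.p6 and written along the strand of the gene; RefSeq starts S100a8 downstream of the GENCODE start, so the end of its window lies inside the GENCODE gene.
S100a8: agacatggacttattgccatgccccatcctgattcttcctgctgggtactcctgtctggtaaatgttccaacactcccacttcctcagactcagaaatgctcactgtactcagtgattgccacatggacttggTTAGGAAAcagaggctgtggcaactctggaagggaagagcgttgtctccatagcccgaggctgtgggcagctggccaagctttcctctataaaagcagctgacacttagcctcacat
S100a9: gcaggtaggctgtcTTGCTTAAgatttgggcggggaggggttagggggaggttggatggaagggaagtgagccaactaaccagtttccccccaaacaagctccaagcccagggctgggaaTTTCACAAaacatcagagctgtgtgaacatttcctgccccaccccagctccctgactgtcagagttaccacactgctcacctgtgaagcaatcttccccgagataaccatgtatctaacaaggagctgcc

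S100a8 counts were 290, 237 and 299 in WT replicates 1 to 3 and 96, 97 and 82 in Jmjd8-KO replicates 1 to 3. Scaled to depth this is 14.3, 12.0 and 15.1 CPM in WT and 5.06, 4.88 and 4.76 CPM in Jmjd8-KO. All 3 knockout mice were low and nearly alike, and the groups did not overlap. The log2 fold change was -1.49 (SE 0.133, edgeR adjusted p = 0.0125). It was -1.47 without WT replicate 1 (edgeR adjusted p = 0.0430) and -1.49 without Jmjd8-KO replicate 2 (adjusted p = 0.00514). Leaving out Jmjd8-KO replicate 1 (edgeR adjusted p = 0.110) or 3 (0.0638), or WT replicate 2 (0.0637) or 3 (0.118), ended the call, in fits where 0 to 4 of all genes passed.

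S100a9 gave only 2, 6 and 9 counts in WT replicates 1 to 3 and 5 counts in each Jmjd8-KO mouse. It failed the filter on low counts. With no filter it had a log2 fold change of -0.08 (edgeR adjusted p = 0.962). The groups overlapped, and counts this low limit what difference could be seen. On the deposited RPKM scale, which divides by gene length and so allows genes to be compared, WT fat held 33.3 ± 4.15 RPKM of S100a8 and 0.514 ± 0.320 RPKM of S100a9 (SD, n = 3). In Jmjd8-KO fat the values were 11.3 ± 0.321 and 0.464 ± 0.0369 RPKM. S100a8 transcript thus stood far above that of its partner in every mouse.

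Most other neutrophil genes on the list were near 0 as well. Of 16 neutrophil markers, 11 stayed under 1 CPM in every library, and Ly6g, Ngp and Stfa2l1 had 0 counts in all. The summed level of the list was 19.1 to 25.0 CPM in Jmjd8-KO and 18.8 to 21.3 CPM in WT. None of the 5 tested markers passed in edgeR with all mice. At an unadjusted p under 0.05 there were 4 of them: Retnlg, Padi4 and Mmp9 with higher values in the knockout and Il1r2 with lower ones. Over all tested genes, 2735 of 14322 had an unadjusted p that low in the same edgeR fit. Retnlg and Il1r2 had 36 counts or fewer in every mouse. Padi4, which citrullinates histones in neutrophils, had 5.48, 4.27 and 6.33 CPM in Jmjd8-KO and 2.32, 2.54 and 2.72 CPM in WT, a log2 fold change of 1.08 (SE 0.204, edgeR adjusted p = 0.0502). Of 14 alternatives, Padi4 passed in 5 and did not pass in 9. It passed without Jmjd8-KO replicate 2 (0.0124 by edgeR), with a minimum count of 50 (0.0345) and by DESeq2 (0.0026), and not without WT replicate 1 (0.137). Retnlg, a resistin-like protein of neutrophils, had 22, 22 and 23 counts in Jmjd8-KO and 3, 10 and 4 in WT (log2 fold change 2.05, edgeR adjusted p = 0.0676). Csf3r, the G-CSF receptor, had a log2 fold change of -0.27. Csf3r, Mmp9 and Padi4 made up most of the summed level of the list in every mouse. That sum was not lower in the knockout mice, but Mmp9 and Padi4, both higher there, carried much of it. Most markers were near 0, and the part of neutrophil number in the fall of S100a8 was not tested.

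S100a4, also known as fibroblast-specific protein and present in macrophages too, was at 71.6, 64.9 and 72.0 CPM in WT replicates 1 to 3. In Jmjd8-KO replicates 1 to 3 it was at 44.5, 31.6 and 48.7 CPM. The groups did not overlap, and the lowest value was that of Jmjd8-KO replicate 2. Its log2 fold change of -0.74 (SE 0.157) missed the threshold (edgeR adjusted p = 0.0676). S100a4 passed without Jmjd8-KO replicate 2 (-0.58, edgeR adjusted p = 0.0101) and not without WT replicate 1 (-0.73, adjusted p = 0.178).

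S100a10, the annexin A2 ligand p11, was at 243.1, 265.3 and 249.6 CPM in WT replicates 1 to 3 and at 228.2, 181.4 and 229.4 CPM in Jmjd8-KO replicates 1 to 3. The groups lay apart by a narrow margin, and the log2 fold change was -0.25 (SE 0.107, edgeR adjusted p = 0.271). Its partner Anxa2 had a log2 fold change of 0.02 (SE 0.0717), a sign that turned to -0.05 with scaling to total counts only. S100a6, or calcyclin, was at 212.2, 244.2 and 221.1 CPM in WT and at 180.7, 330.6 and 197.5 CPM in Jmjd8-KO. Jmjd8-KO replicate 2 was the highest of the 6 mice and its group mates the lowest. The log2 fold change of S100a6 was 0.07 (SE 0.223, edgeR adjusted p = 0.887) with all mice and -0.26 without Jmjd8-KO replicate 2 (adjusted p = 0.0885). It was -0.30 without both that mouse and WT replicate 1 (edgeR adjusted p = 0.000107). That fit held 2 mice per group, left out the 2 libraries that had stood apart, and called 2833 of 14287 genes. The direction of S100a6 thus depended on the mice included.

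The S100a genes listed here all lie on chromosome 3. S100a1 to S100a9 occupy the interval from 90511034 to 90695721, in the order S100a1, S100a13, S100a14, S100a16, S100a3, S100a2, S100a4, S100a5, S100a6, S100a7a, S100a8 and S100a9, and S100a11 and S100a10 follow 2820 kb further on. Levels changed sharply from gene to gene along this order. Mean RPKM over the 6 mice was 297 for S100a6 and 104 for S100a4, but 0 for S100a5 between them, 0.293 for S100a7a and 22.3 for S100a8. S100a11 (380 RPKM) and S100a10 (332 RPKM) had the highest levels of the S100a genes. S100a2, found on the map and outside the fixed list, had at most 2 counts in any library.

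**Figure D2:**
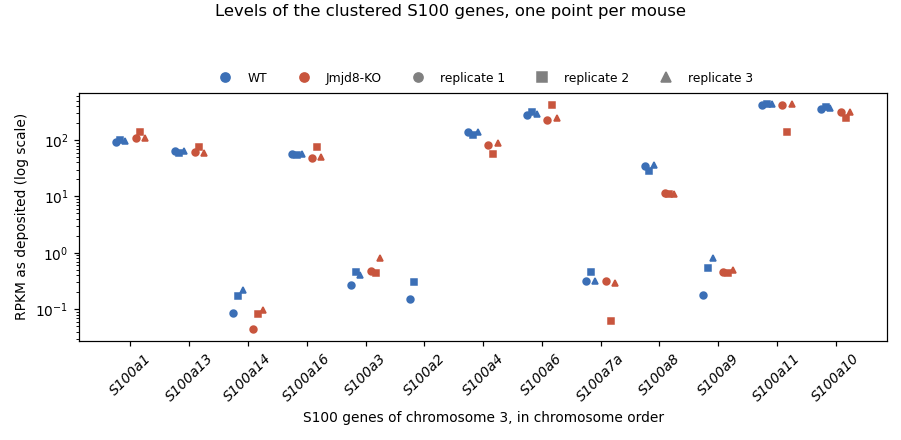
Deposited RPKM (log axis) of S100a genes of chromosome 3 in chromosome order; a point is a mouse, colour gives the group and shape the replicate number, and values of 0 cannot be drawn, so S100a5, at 0 in every mouse, is left out. The WT points of S100a8 (33.3 ± 4.15 RPKM, SD) lie clear above its Jmjd8-KO points (11.3 ± 0.321), and in S100a11 the lone low point is Jmjd8-KO replicate 2 (138 RPKM).

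None of the 5 other S100 genes that could be tested passed, of 11 listed ones in the table, and their median log2 fold change was 0.12. S100pbp, which was on the same list but encodes a binding partner of an S100 protein, did not pass either (log2 fold change -0.03). S100a1, a calcium sensor of muscle that fat also expressed here, had the smallest p. It was at 73.4, 94.5 and 74.5 CPM in Jmjd8-KO and 58.3, 67.2 and 63.4 CPM in WT, so every knockout value was above every WT value (log2 fold change 0.36, SE 0.118, edgeR adjusted p = 0.169). S100a13 and S100a16 had log2 fold changes of 0.12 and 0.13, and that of S100a16 was -0.11 without Jmjd8-KO replicate 2. S100a11 stood at 223.5 to 237.8 CPM in 5 mice and at 77.1 CPM in Jmjd8-KO replicate 2. Its log2 fold change was -0.31 with that mouse and 0.06 without it. S100b, a marker of glia, was highest in WT replicate 1 (7.55 CPM against 3.63 to 5.53 CPM in the other mice), the library with nervous system transcripts.

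Among the acute-phase genes, Lcn2, Hpx and Saa3 are shown with the 250 bases before their RefSeq starts (32387739, 105600116 and 46715676), since Lcn2 and Hpx fell and Saa3 had the richest set of C/EBP matches. The windows are chr2:32387740-32387989 for Lcn2, chr7:105600117-105600366 for Hpx and chr7:46715677-46715926 for Saa3, all on the minus strand (RefSeq, GRCm38.p6). GENCODE M21 draws these genes with earlier starts, so the Lcn2 window lies wholly inside the GENCODE gene. The Hpx and Saa3 windows, written along the strand of the gene, begin before the GENCODE gene and end inside it. Capitals again mark matches to TTNNGNAA, and in Saa3 also to the overlapping C/EBP variant TTGCNNAAT.
Lcn2: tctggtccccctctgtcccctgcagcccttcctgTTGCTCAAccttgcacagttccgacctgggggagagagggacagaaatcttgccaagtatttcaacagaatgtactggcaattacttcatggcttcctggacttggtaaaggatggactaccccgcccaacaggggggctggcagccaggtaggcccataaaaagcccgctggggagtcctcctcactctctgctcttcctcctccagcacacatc
Hpx: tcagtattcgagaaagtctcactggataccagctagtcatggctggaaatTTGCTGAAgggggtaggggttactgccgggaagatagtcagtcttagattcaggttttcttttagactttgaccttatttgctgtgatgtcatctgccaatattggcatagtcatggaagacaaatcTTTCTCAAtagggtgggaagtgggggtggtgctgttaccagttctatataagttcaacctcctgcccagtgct
Saa3: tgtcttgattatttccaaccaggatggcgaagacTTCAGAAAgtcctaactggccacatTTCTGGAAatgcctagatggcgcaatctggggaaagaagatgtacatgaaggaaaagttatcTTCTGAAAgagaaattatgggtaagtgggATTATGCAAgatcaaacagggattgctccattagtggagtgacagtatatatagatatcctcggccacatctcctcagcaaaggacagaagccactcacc

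Of the 10 genes, 7 had a promoter window (S100a8, S100a9, S100a4, S100a6, Lcn2, Saa3 and Hpx); Hp, Orm1 and S100a10 had none. TTNNGNAA was found in 5 of the 7, all but S100a4 and S100a6, and in 36.8% of 32851 windows of the same length in the mouse table. Saa3 held 4 matches, and the 1 from -99 to -92, counted from the base before the gene start as -1, overlaps a match to the C/EBP variant TTGCNNAAT, which 2.11% of all windows hold. The STAT consensus TTCNNNGAA (7.02% of all windows) and the NF-kB consensus (7.25%) matched on neither strand in any of the 7. These matches describe letters only.

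Lcn2 encodes an iron-siderophore-binding lipocalin made by adipocytes, macrophages and neutrophils. Its counts were 738, 614 and 675 in WT replicates 1 to 3 and 325, 219 and 305 in Jmjd8-KO replicates 1 to 3. These are 36.4, 31.1 and 34.0 CPM against 17.1, 11.01 and 17.7 CPM, with no overlap and the lowest value in Jmjd8-KO replicate 2. This gave a log2 fold change of -1.15 (SE 0.185, edgeR adjusted p = 0.0364) and -0.96 without that mouse (adjusted p = 0.00514). Leaving out any other mouse ended the call, the edgeR adjusted p being 0.101, 0.114 and 0.175 when WT replicate 1, 2 or 3 was left out, and 0.127 and 0.0922 when it was Jmjd8-KO replicate 1 or 3.

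Hpx had the largest fold difference of the 10 and the second lowest level. Its counts were 82, 54 and 78 in WT replicates 1 to 3 and 9, 13 and 12 in Jmjd8-KO replicates 1 to 3. That is 4.05, 2.74 and 3.93 CPM against 0.474, 0.654 and 0.697 CPM, a wide gap between the groups. For Hpx the log2 fold change was -2.54 (SE 0.270, edgeR adjusted p = 0.0181), and -2.60 without Jmjd8-KO replicate 2 (adjusted p = 0.00935). The call was lost without any other mouse, the adjusted p by edgeR being 0.0504, 0.0637 and 0.133 when WT replicate 1, 2 or 3 was left out, and 0.116 and 0.0679 when it was Jmjd8-KO replicate 1 or 3.

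Saa3, the serum amyloid A form made outside the liver, was at 49.7, 43.7 and 48.0 CPM in WT replicates 1 to 3. In Jmjd8-KO replicates 1 to 3 it was at 23.8, 36.5 and 25.0 CPM. The groups did not overlap, but Jmjd8-KO replicate 2 stood between its group mates and the WT mice. A log2 fold change of -0.73 (SE 0.169) did not pass (edgeR adjusted p = 0.0822), and did without that mouse (-0.95, adjusted p = 0.00480). Without WT replicate 1, Saa3 did not pass. The liver forms Saa1 and Saa2, and Saa4, lay next to Saa3 on chromosome 7 and did not exceed 0.232 CPM in any library.

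Hp, the haemoglobin-binding haptoglobin, was the most abundant of the 10 and ranked 7 of 24539 genes by mean RPKM. It took 0.298% to 0.488% of all counts. Its levels were 4705, 4118 and 4492 CPM in WT replicates 1 to 3 and 3050, 4437 and 3175 CPM in Jmjd8-KO replicates 1 to 3. Jmjd8-KO replicate 2 lay within the WT range and the other knockout mice below it. The log2 fold change was -0.32 (SE 0.153, edgeR adjusted p = 0.306), and Hp fell without Jmjd8-KO replicate 2 (-0.51, adjusted p = 0.0215). It did not pass without WT replicate 1.

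Orm1, the carrier protein orosomucoid, was at 241.3, 254.0 and 239.3 CPM in WT and at 264.9, 173.0 and 263.1 CPM in Jmjd8-KO replicates 1 to 3. Jmjd8-KO replicate 2 was the lowest of the 6 mice and its group mates the highest. The log2 fold change was -0.07 (SE 0.162, edgeR adjusted p = 0.837), and 0.11 without that mouse. Its neighbours on chromosome 4, Orm3 and Orm2, differed from it. Orm2 fell, from 17.7, 19.2 and 17.9 CPM in WT to 11.8, 10.3 and 11.04 CPM in Jmjd8-KO (log2 fold change -0.73, SE 0.102, edgeR adjusted p = 0.0281; 0.0852 to 0.150 without Jmjd8-KO replicate 1 or 3 or any 1 WT mouse). Orm3 had 5.48, 9.18 and 7.96 CPM in WT and 12.7, 17.3 and 12.96 CPM in Jmjd8-KO, no overlap and the opposite direction, without passing (log2 fold change 0.92, SE 0.220, edgeR adjusted p = 0.0870). The 3 genes are close copies, and how reads that match several places were counted is not given, so the split between them is uncertain. Hba-a1 and Hba-a2, another set of near-identical genes, held equal counts in all 6 libraries.

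**Figure D3:**
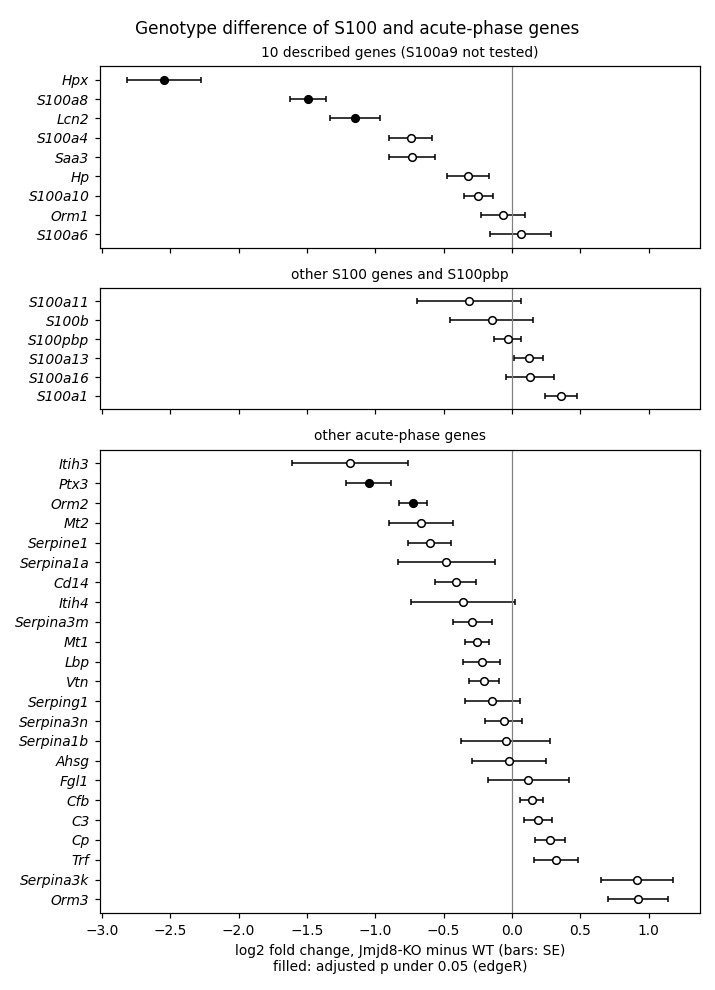
Log2 fold change, Jmjd8-KO minus WT, with its SE from edgeR, for the 9 tested genes described here, 5 other S100 genes with S100pbp, and 23 other acute-phase genes; filled points passed at an adjusted p under 0.05. Hpx, S100a8 and Lcn2 passed in the top panel, none in the middle panel, and Ptx3 and Orm2 in the bottom panel.

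Ordered by length-corrected level, the genes ran from Hp (2756 RPKM over all mice) through S100a10 (332), S100a6 (297), Orm1 (284), S100a4 (104), Saa3 (66.2), Lcn2 (26.9), S100a8 (22.3) and Hpx (1.33) to S100a9 (0.489). Within WT, Orm1 (297 ± 6.6 RPKM) and S100a6 (297 ± 17.8) differed by less than their spread (SD, n = 3 each). Lcn2 (37.6 ± 3.43) and S100a8 (33.3 ± 4.15) differed by about their spread. With all 6 mice, the 3 genes that fell stood near the lower end of this order. That depended on the mice included: Hp, at the top, fell as well without Jmjd8-KO replicate 2. Without both that mouse and WT replicate 1, in a fit of 2 mice per group, all tested members but Orm1 fell. So did 1389 of all 14287 genes tested in that fit.

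The knockout mice varied among themselves in a way that separated these genes. Jmjd8-KO replicates 1 and 3 lay within 1.10-fold of each other for 8 of the 9 tested genes, the exception being Hpx at 1.47-fold on 9 and 12 counts. Relative to their mean, Jmjd8-KO replicate 2 held 1.75 times the S100a6, 1.5 times the Saa3 and 1.43 times the Hp. It held 0.678 times the S100a4, 0.655 times the Orm1 and 0.632 times the Lcn2, and 0.993 times the S100a8. Over all 14322 tested genes, 13.7% were at 1.4 times or more in that mouse and 12.1% at 0.7 times or less. The summed level of 10 progenitor and fibroblast markers was 8375.5 CPM there and 5869.6 and 6135.0 CPM in the other knockout mice. The collagens Col1a1 (2495 against 1092 and 1126 CPM) and Col3a1 (4182 against 2460 and 2649 CPM) made that sum, while the other 8 markers of the list were each lower there than in both other knockout mice and summed to 1698.4 against 2317.1 and 2360.2 CPM. The part of either in the values of S100a6, Saa3 and Hp was not tested.

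Of 36 other acute-phase genes in the table, 23 could be tested, and 2 fell and 0 rose. The median log2 fold change was -0.21. Ptx3, the long pentraxin, was at 15.1, 18.0 and 13.7 CPM in WT and at 6.27, 8.75 and 7.55 CPM in Jmjd8-KO. Its groups lay apart (log2 fold change -1.05, SE 0.167, edgeR adjusted p = 0.0358; 0.0943 to 0.142 without Jmjd8-KO replicate 1 or 3 or any 1 WT mouse). The other was Orm2. Of the list, 15 genes stayed under 1 CPM in every library, among them the fibrinogen chains Fga, Fgb and Fgg, Crp, and Apcs, which had no count, all products of the liver. Lbp, which carries lipopolysaccharide to CD14, was abundant and had a log2 fold change of -0.22 (SE 0.135, edgeR adjusted p = 0.408).

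All 20 receptors and partners on the list could be tested, and 2 rose and 0 fell. Both are receptors for proteins described here. Cd163, the macrophage receptor that takes up haptoglobin bound to haemoglobin, went from 42.0, 54.1 and 50.7 CPM in WT to 91.4, 105.1 and 87.5 CPM in Jmjd8-KO (log2 fold change 0.95, SE 0.119, edgeR adjusted p = 0.0222). Lrp2, or megalin, an endocytic receptor that binds lipocalin-2, went from 8.59, 12.0 and 12.0 CPM to 23.6, 26.5 and 20.4 CPM (log2 fold change 1.11, SE 0.167, edgeR adjusted p = 0.0317). In both genes every knockout mouse was above every WT mouse. Neither passed without Jmjd8-KO replicate 1 or 3 or any 1 WT mouse, with edgeR adjusted p of 0.0674 to 0.142 for Cd163 and 0.0778 to 0.144 for Lrp2.

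Of the receptors for S100A8 and S100A9, Tlr4 had a log2 fold change of -0.16 (SE 0.130, edgeR adjusted p = 0.515). Ager, which encodes RAGE, had 1.86 CPM or less in every mouse. Tlr2, which with Fpr2 responds to serum amyloid A, had a log2 fold change of -0.41 (SE 0.119, edgeR adjusted p = 0.132), and Fpr2 had 13 counts or fewer in every mouse. Lrp1, the receptor for haem-bound hemopexin, had a log2 fold change of 0.18 (SE 0.0879, edgeR adjusted p = 0.324). Slc22a17, a second receptor for lipocalin-2, stood at 64.9 CPM in WT replicate 1 and at 21.6 to 42.2 CPM in the other 5 mice. Its log2 fold change was -0.27 with WT replicate 1 and 0.44 without it.

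Of 25 genes of the inducing cytokines and their signalling, 22 could be tested, and 1 fell and 0 rose, with a median log2 fold change of -0.011. The 1 was Socs3, a target and inhibitor of STAT3 signalling. It was at 15.5, 16.1 and 15.8 CPM in WT and at 9.49, 10.2 and 10.5 CPM in Jmjd8-KO, with no overlap (log2 fold change -0.65, SE 0.0971, edgeR adjusted p = 0.0311; 0.0945 to 0.175 without Jmjd8-KO replicate 1 or 3 or any 1 WT mouse). Il6 and Il1b, the main inducers, were under 1 CPM in every library and were not tested. Cebpb, a transcription factor of the acute phase, had a log2 fold change of 0.38 (SE 0.260, edgeR adjusted p = 0.462), with its highest value, 235.0 CPM, in Jmjd8-KO replicate 2. Cebpa and Cebpd had log2 fold changes of 0.48 (SE 0.163, edgeR adjusted p = 0.182) and 0.53 (SE 0.279, adjusted p = 0.344). In both, every Jmjd8-KO value lay above every WT value, as in 14% of all tested genes. Their highest values were also in Jmjd8-KO replicate 2, at 1315 and 92.3 CPM.

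Markers of other cell types moved beside these genes. In bulk tissue, fewer cells of a type and less RNA per cell cannot be told apart. Of 16 macrophage markers 8 fell and 1, Cd163, rose, and their summed level was 3370.2 to 3842.5 CPM in Jmjd8-KO and 4771.5 to 4942.7 CPM in WT. Tyrobp, the macrophage signalling adaptor, had a log2 fold change of -0.77 (SE 0.0798, edgeR adjusted p = 0.0181) and Adgre1, the antigen F4/80, of -0.63 (SE 0.103, adjusted p = 0.0381). Neither passed without Jmjd8-KO replicate 1 or 3 or any 1 WT mouse, with edgeR adjusted p of 0.058 to 0.133 for Tyrobp and 0.0926 to 0.186 for Adgre1. The other 7 of the 16 did not pass, among them Csf1r (log2 fold change -0.024, SE 0.0753, edgeR adjusted p = 0.875). Of 12 lipid-associated macrophage markers 5 fell and 0 rose, with sums of 17735.8 to 18203.7 CPM in Jmjd8-KO and 18281.0 to 19062.3 CPM in WT and a median log2 fold change of -0.80. Lpl and Ctsd made up most of those sums, and the other 10 genes summed to 1340.5 to 1716.8 CPM in Jmjd8-KO and 2495.6 to 2816.4 CPM in WT. Of 14 adipocyte markers 4 rose and 0 fell, with sums of 35437.7 to 40989.9 CPM in Jmjd8-KO and 27545.6 to 31137.5 CPM in WT. Of 9 measured mesothelial markers 3 rose, with sums of 350.3 to 387.0 against 211.3 to 269.1 CPM. The highest WT sum was that of WT replicate 1, the library with nervous system transcripts. Gpm6a, on the mesothelial list, was at 115.3 CPM there and at 30.6 to 54.9 CPM in the other mice. Of 7 monocyte markers 1 rose, F13a1 (log2 fold change 0.58, edgeR adjusted p = 0.0481, and 0.101 to 0.193 without Jmjd8-KO replicate 1 or 3 or any 1 WT mouse), with sums of 423.0 to 489.9 against 322.2 to 395.3 CPM. Without F13a1 the monocyte sums overlapped, at 105.1 to 164.2 against 140.2 to 158.6 CPM. None of the tested progenitor and fibroblast (10), endothelial (8), nervous system (7), liver (4) or red blood cell (5) markers passed in edgeR. The part of these markers in the falls of S100a8, Lcn2 and Hpx was not tested.

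**Figure D4:**
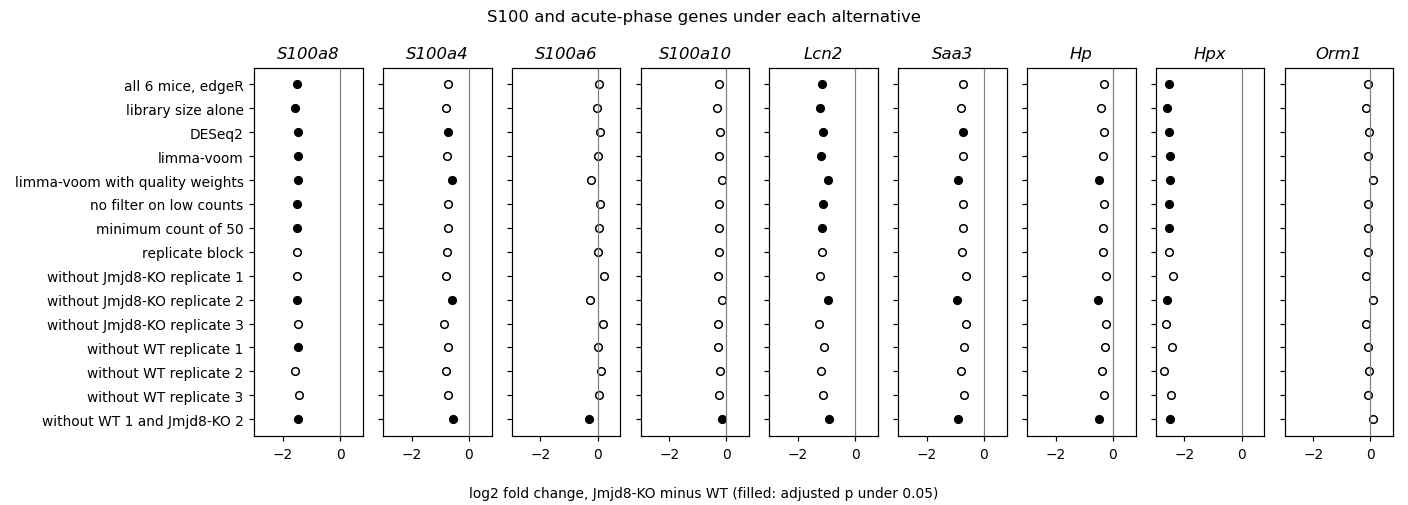
Log2 fold change of the 9 tested genes (x axis, Jmjd8-KO minus WT) with all 6 mice and under 14 alternatives (rows); filled points passed at an adjusted p under 0.05. S100a8, Lcn2 and Hpx stay left of 0 in every row with S100a8 between -1.59 and -1.42, and S100a6 and Orm1 fall on both sides of 0.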

How the data were processed

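Each of the 6 mice has a raw count and an RPKM value per gene. The submitters' processing notes name STAR, featureCounts and the build mm10. The count columns were deposited unnormalized, per the file headers, and hold whole numbers. RPKM (reads per kilobase, scaled to depth) was computed by the authors and is used here only to compare levels between genes. Tool versions, annotation, strand and the handling of reads that match several places were not stated. Total counts were 17598696 to 20598473 per library.

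Counts were scaled by TMM factors, filtered by filterByExpr (minimum count 10, 14322 genes kept) and tested with edgeR 4.0.16 in R 4.3.3 (glmQLFit and glmQLFTest, genotype the only term), with Benjamini-Hochberg adjustment over all genes kept. Each SE is the size of the fold change, in log2, divided by the root of F. The fit was tested on simulated data. Alternatives used DESeq2 1.42.0, limma 3.58.1, other scaling and filters, a block for the replicate number, and mice left out. Replicate numbers are not said to pair mice. Motifs were searched in RefSeq windows (GRCm38.p6), and genes were placed by symbol in GENCODE M21.

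All 10 members are described. From each other gene list the rule named those that passed, up to the 5 with the smallest p, or otherwise the 1 with the smallest p; other S100 genes and receptors could all be given, and up to 3 genes of each marker list. Orm3, Lbp, Saa1, Saa2, Saa4, Crp, Apcs, Fga, Fgb, Fgg, Il6, Il1b, Cebpa, Cebpb, Cebpd, Csf1r and the neutrophil genes beyond Ly6g, Ngp and Stfa2l1 fall outside that rule and were named after their values were seen. Members and lists were chosen with earlier results of these data known.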

Additional observations from a re-analysis of the deposited data

How the results depend on the processing

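S100a8, Lcn2 and Hpx were lower in Jmjd8-KO under all 14 alternatives, with log2 fold changes of -1.59 to -1.42, -1.27 to -0.90 and -2.71 to -2.39, and their adjusted p ranged from 2.18e-12 to 0.118, 5.67e-12 to 0.175 and 7.36e-09 to 0.133. With all mice 304 genes and 3 members passed. DESeq2 called 1039 genes and 5 members, limma-voom with quality weights 2030 and 6, and edgeR without the low-count filter 156 and 3. Same-numbered mice did not deviate together (correlations of -0.0179, -0.0292 and 0.00817), and with the replicate block 5 genes and 0 members passed. Leaving out 1 mouse gave 0 to 1351 genes and 0 to 6 members; the 0 genes came without WT replicate 3, where 2119 had an unadjusted p under 0.05. Leaving out both WT replicate 1 and Jmjd8-KO replicate 2, which left 2 mice per group, gave 2833 genes and 8 members, all tested ones but Orm1. Scaling by total counts moved the median of all genes to -0.0818, and 77.4% of calls were then lower, against 62.8%, 51.6% by DESeq2 and 50.8% with quality weights.

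Some log2 fold changes turned sign, and the cause was not tested. S100a6 was -0.0124 with scaling by total counts, -0.243 with quality weights and -0.255 to 0.227 with 1 mouse left out. It was -0.3 without both doubted libraries (edgeR adjusted p = 0.000107, from 2 mice per group). Orm1 was 0.0877 with quality weights, -0.166 to 0.109 with 1 mouse left out and 0.0976 without both. S100a16 was -0.0952, -0.114 to 0.252 and -0.119 in the same order. S100a11 was -0.541 to 0.0551 with 1 mouse left out and 0.0371 without both, S100b -0.351 to 0.215 and 0.0899, and Slc22a17 -0.591 to 0.44 and 0.124. Ager was -0.528 to 0.189 with 1 mouse left out. Anxa2 was -0.0529 with scaling by total counts, -0.0123 to 0.0499 with 1 mouse left out and -0.00653 without both. S100a9, with 2 to 9 counts, entered only the fit with no filter, where it did not pass.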

Other observations

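The genes whose pattern over the 6 mice was most like that of 3 of the members were found by the root mean square difference of log2(CPM + 0.5), centred on the mean of each gene, among 13768 genes. For S100a8 these were Tph2 (0.0716), Trdn (0.0833), Myh15 (0.137), Fosb (0.14) and Mir3082 (0.143), with Lcn2 at rank 38 and Hpx at rank 52. For Lcn2 they were Plekhn1 (0.0623), Adam8 (0.0648), Tm4sf19 (0.0686), Lilr4b (0.0708) and Dpep2 (0.0751). For Saa3 they were Cdc6 (0.0819), Rasa4 (0.0933), Dusp9 (0.0941), H2-Q8 (0.103) and H2-Q6 (0.105), with Hp at rank 98. All share the same libraries, so this likeness is a description. Hpx was at 0.47 to 0.70 CPM in Jmjd8-KO, near the added 0.5, which lessens its difference between the groups in this measure.

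Crisp1, a secreted protein of the epididymis, had 12, 16 and 10 counts in WT replicates 1 to 3 and 0 in each Jmjd8-KO mouse and passed (edgeR adjusted p = 0.0364), while 8 of the 12 epididymis markers had no count in any library. Ttr, a liver and choroid plexus gene, made up most of the summed liver marker level of 165.2 CPM in WT replicate 1, which was 13.2 to 21.3 CPM in the other mice.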
